A study of Mus musculus with 9 samples.

Results

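Macroautophagy encloses cytoplasm in a double membrane and delivers it to the lysosome, and the 39 genes described here encode its core machinery and cargo receptors. They were taken by symbol from the table of gene TPM (transcript abundance corrected for gene length and scaled to a fixed total within each library), which held 24493 rows. All 39 were found and all 39 passed the filter on low values. RNA-seq was made from 6620c1, a line of mouse pancreatic tumor cells, at day 0, day 2 and day 14 of culture under nutrient and oxygen deprivation, with 3 libraries at each time. All 9 columns of the table also carry the label WT, whose meaning the sources used here do not give. The medium listed for all 9 libraries, day 0 included, was DMEM with amino acids at 20% of the usual concentration, glucose at 2.5 mM and fetal calf serum at 0.5%, with no further treatment. The sources used here do not give the oxygen level, whether the day 0 cells had already met the medium, or a control kept for the same time in full medium. One cell line was used. Nothing states that the 3 libraries of a time came from separate cultures, so the p-values measure the spread between these libraries, which may be technical.

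In the pathway, the ULK kinase complex starts autophagosome formation, and the class III phosphatidylinositol 3-kinase complex marks the forming membrane with phosphatidylinositol 3-phosphate. WIPI proteins read that lipid, ATG2 and ATG9 proteins move lipids into and across the membrane, and ubiquitin-like conjugation enzymes attach the ATG8 proteins (LC3 and GABARAP) to it. Cargo receptors bind their cargo and ATG8 proteins at once, and are themselves degraded with the cargo. Pancreatic ductal tumors are known for a high basal use of autophagy. The measurements below are of mRNA, which does not report autophagic flux or protein.

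The ATG8 family carries its best known sequence feature at the end of the coding region, where the ATG4 proteases cut after a glycine to expose the residue that is joined to lipid. The last 48 coding bases, stop codon included, are printed for the 5 family members to show how alike they are at this site. They were read from the GENCODE M21 coding exons on GRCm38, with the last in-frame glycine codon in capitals.
Map1lc3a: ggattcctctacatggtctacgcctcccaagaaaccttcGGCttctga
Map1lc3b: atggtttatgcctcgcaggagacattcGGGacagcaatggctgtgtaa
Gabarap: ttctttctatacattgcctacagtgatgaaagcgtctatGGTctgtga
Gabarapl1: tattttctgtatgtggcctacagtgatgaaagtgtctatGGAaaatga
Gabarapl2: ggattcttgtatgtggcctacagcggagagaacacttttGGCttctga
In Map1lc3b, 5 codons lie between that glycine and the stop, against 1 codon in each of the other 4. Over the whole coding regions the 10 pairs were 54.4% to 77.5% identical, and 0 of the 10 shared a run of 31 bases. Reads of that length from these coding regions can therefore be told apart within the family.

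Across the 39 genes, 24 (61.5%) rose and 2 (5.13%) fell at day 2 against day 0, and 28 (71.8%) rose and 0 fell at day 14 against day 0. These calls come from limma on log2(TPM + 1) with p adjusted over all 12693 genes tested, at an adjusted p under 0.05. Of all genes tested, 59.0% passed at day 2 (27.1% higher and 31.9% lower) and 55.1% at day 14 (36.2% higher and 18.8% lower). The counts by role group below are to be read beside these same shares. A rise of at least 2-fold on the log2(TPM + 1) scale was called for 11 members at day 2 and for 11 at day 14. The shares of all genes were 10.1% and 13.5%. Some members whose mean TPM doubled fall short of 2-fold on this scale. A fall of that size was called for 0 members at either time, and for 13.4% of all genes at day 2 and 4.76% at day 14. At day 2 the values of 25 members lay wholly above those of day 0 and of 3 wholly below, compared with 31.7% and 34.8% of all genes. At day 14 these were 30 above and 2 below, compared with 43.2% and 23.3%. The median log2 fold change of the members was 0.53 at day 2, where that of all genes was -0.02, and 0.61 at day 14, where that of all genes was 0.22. The all-gene median at day 14 depends on how libraries are scaled, so values relative to it are given below where they matter. Both comparisons use the same day 0 libraries. In a culture measured in bulk, fewer cells of a kind and less RNA per cell cannot be told apart.

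**Figure D1:**
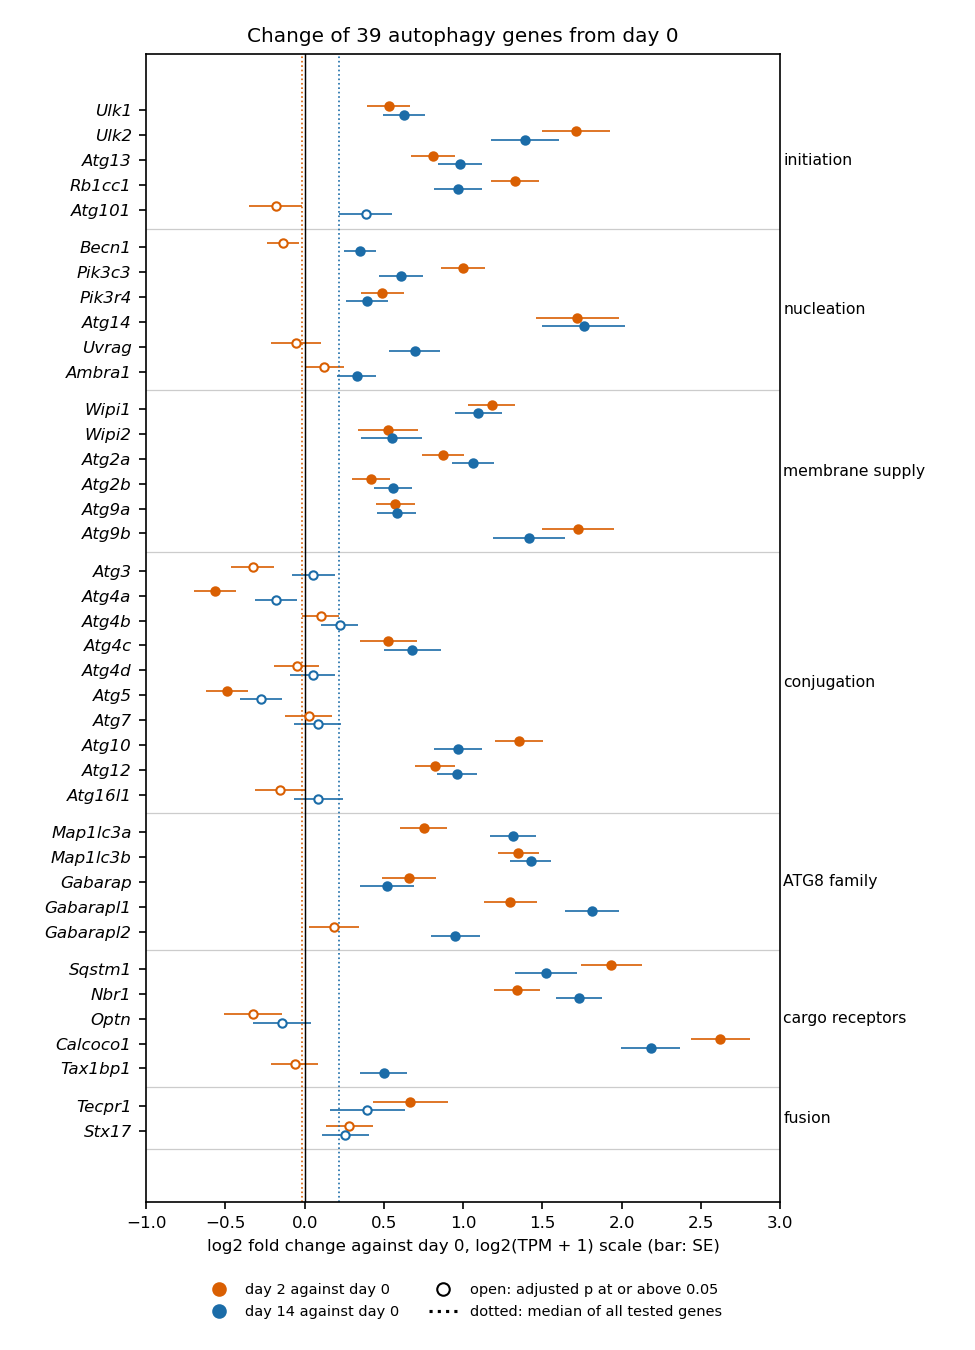
Log2 fold change (horizontal axis, log2(TPM + 1) scale, bars SE) of each of the 39 genes, grouped by role down the vertical axis, at day 2 and day 14 against day 0 (n = 3 libraries each). Filled points passed an adjusted p of 0.05 and dotted lines mark the medians of all tested genes, -0.02 and 0.22; Calcoco1 and Sqstm1 lie farthest to the right at day 2, and the conjugation genes lie on both sides of 0.

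The libraries differed in ways that touch these values. The row Mir6236 held 8.27% to 14.6% of the TPM in 8 libraries and 22.5% in day 2 replicate 3, a share taken from the TPM of all other rows of that library. Rows with at least 1 TPM numbered 11569 to 11633 at day 0, 12033 to 12085 at day 2 and 12595 to 12717 at day 14. Replicates correlated at 0.947 to 0.979 (Pearson's r across tested genes, which are not independent). Summed TPM of 6 epithelial markers averaged 11106 ± 328 at day 0, 6514 ± 1058 at day 2 and 7455 ± 950.3 at day 14 (mean ± SD, n = 3), almost all of it from keratins. Unlike that sum, Cdh1 was highest at day 14, with means of 239.6 ± 13.1, 224 ± 10.1 and 399 ± 34.6 TPM over the days and a log2 fold change of 0.73 at day 14 against day 0 (adjusted p = 0.000272). Epcam averaged 2.23 TPM at day 0, 0.686 TPM at day 2 and 14.1 TPM at day 14. Of markers of other cells, 6 of 7 for fibroblasts, 4 of 4 for endothelium, 5 of 6 for acinar cells and 4 of 7 for leukocytes stayed below 1 TPM in all libraries, and the acinar gene Cela2a was at 0 in all. The leukocyte sum in TPM was 25.5 to 30.8 at day 0, 28.4 to 35.7 at day 2 and 17.7 to 24.2 at day 14, most of it from Mrc1. Mrc1 averaged 26.6 ± 3.10 TPM at day 0, 28.0 ± 2.93 TPM on day 2 and 10.4 ± 3.47 TPM on day 14 (mean ± SD, n = 3), and it fell at day 14 against day 0 (adjusted p = 0.000654). Lower in level, Cd68 averaged 2.20 ± 0.15, 3.70 ± 0.943 and 6.32 ± 1.36 TPM and Csf1r 0.215 ± 0.0919, 0.559 ± 0.245 and 3.97 ± 1.5 TPM over the days, and both rose at day 14 against day 0 (adjusted p = 0.00087 and 0.000194). Ptprc, which marks all leukocytes, stayed below 1 TPM. The part of these shifts in the results below was not tested.

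Most genes of the initiation complex rose, led by the kinase gene Ulk2 and by Rb1cc1, whose product FIP200 is the scaffold of the complex. In total 4 of 5 rose at both times, with median log2 fold changes of 0.81 at day 2 and 0.97 at day 14 against day 0. Ulk2 had 3.65, 4.25 and 3.71 TPM in the day 0 libraries, 10.8, 20.2 and 15.2 TPM in those of day 2 and 9.41, 13.7 and 12.4 TPM in those of day 14. Every library of day 2 and day 14 lay above every library of day 0. The log2 fold change of Ulk2 was 1.71 (SE 0.21, adjusted p = 0.000141) at day 2 and 1.39 (SE 0.21, adjusted p = 0.000714) at day 14 against day 0. Levels of Rb1cc1 were 7.01, 7.83 and 8.77 TPM on day 0, 19.9, 26.4 and 18.1 TPM on day 2 and 15.3, 16.8 and 16.8 TPM on day 14. The 3 groups did not overlap, with day 2 highest. The rise of Rb1cc1 was 1.33 (SE 0.15, adjusted p = 7.84e-05) at day 2 and 0.97 (SE 0.15, adjusted p = 0.000748) at day 14 on the log2 scale. Atg13 encodes the adaptor that links the ULK kinases to the scaffold. At day 0 Atg13 measured 15.7, 15.4 and 13.3 TPM, at day 2 23.6, 30.6 and 26.0 TPM and at day 14 26.3, 30.04 and 34.4 TPM. Atg13 changed by 0.81 (SE 0.14, adjusted p = 0.000939) at day 2 and 0.98 (SE 0.14, adjusted p = 0.000451) at day 14 on the log2 scale, with no overlap with day 0.

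Atg101, which encodes the stabilising partner of ATG13 and was the most abundant member of the complex, stood apart from the rest. The libraries held Atg101 at 49.9, 43.8 and 45.2 TPM on day 0, 48, 42.8 and 32.5 TPM on day 2 and 53.0, 57.0 and 73.9 TPM on day 14. Day 2 overlapped day 0, and day 14 lay above both. Neither the log2 fold change at day 2, -0.18 (SE 0.17, adjusted p = 0.372), nor that at day 14, 0.39 (SE 0.17, adjusted p = 0.0775), passed. The day 14 value passed without day 2 replicate 3 (adjusted p = 0.0434), with the 20 most abundant rows or Mir6236 removed (0.0354 and 0.0373) and with only the groups compared in the fit (0.0482). The remaining kinase gene, Ulk1, stayed within 11.8 to 21.9 TPM over the 9 libraries and rose at both times, by less than Ulk2. Differences between genes in the size of their change were not tested.

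Among the 6 nucleation genes, 3 rose at day 2 and all 6 at day 14 against day 0, with median log2 fold changes of 0.31 and 0.50. The strongest was Atg14, which encodes the subunit that directs the lipid kinase complex to the site of autophagosome formation. Atg14 had 3.6, 3.52 and 3.37 TPM in the day 0 libraries, 18.6, 14.5 and 9.66 TPM in those of day 2 and 20.8, 10.8 and 12.6 TPM in those of day 14. The spread among later libraries was wide, but all 6 exceeded the day 0 libraries. In log2 fold change Atg14 stood at 1.72 (SE 0.26, adjusted p = 0.00046) at day 2 and 1.76 (SE 0.26, adjusted p = 0.000585) at day 14. Pik3c3 encodes the catalytic subunit, VPS34. Levels of Pik3c3 were 19.3, 18.5 and 17.7 TPM on day 0, 42.9, 34.5 and 36.8 TPM on day 2 and 32.3, 31.1 and 23.6 TPM on day 14. The 3 groups did not overlap and day 2 was highest. Pik3c3 changed by 0.998 (SE 0.14, adjusted p = 0.000273) at day 2 and 0.61 (SE 0.14, adjusted p = 0.00534) at day 14 on the log2 scale.

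Becn1, the Beclin 1 gene, was the most abundant nucleation member and passed at day 14 only. At day 0 Becn1 measured 67.5, 68.5 and 69.9 TPM, at day 2 59.1, 70.4 and 58.1 TPM and at day 14 84.2, 84.5 and 94.5 TPM. Day 2 overlapped day 0, while the day 14 libraries were all higher. Becn1 had a log2 fold change of -0.14 (SE 0.10, adjusted p = 0.275) at day 2 and 0.35 (SE 0.10, adjusted p = 0.0176) at day 14 against day 0. Relative to the median of all genes the day 14 value was 0.13. The call was lost under median-of-ratios scaling (log2 fold change 0.12, adjusted p = 0.217) and without day 0 replicate 1, day 0 replicate 2 or day 14 replicate 3 (adjusted p 0.0539 to 0.0622). The other 3 nucleation genes, Pik3r4, Uvrag and Ambra1, ranged from 9.90 to 33.5 TPM and all rose at day 14. Ambra1, which encodes a regulator of Beclin 1, passed narrowly at day 14 with an adjusted p of 0.0486. It did not pass when any 1 of 7 libraries was left out, namely the 3 of day 0, the 3 of day 14 and day 2 replicate 1 (adjusted p 0.0557 to 0.159). Pik3r4, the gene of the regulatory subunit VPS15, passed with an adjusted p of 0.0321 at day 14 and did not when any 1 of 5 libraries was left out, namely the 3 of day 0 and day 14 replicates 2 and 3 (adjusted p 0.0604 to 0.113). Under median-of-ratios and quantile scaling neither gene passed at day 14 (adjusted p 0.221 and 0.605 for Pik3r4, and 0.336 and 0.374 for Ambra1).

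All 6 genes for lipid binding and membrane supply rose at both times, the role group in which every member passed in both comparisons. Their median log2 fold changes were 0.72 at day 2 and 0.82 at day 14 against day 0. Atg9b encodes a lipid scramblase related to the more widely expressed ATG9A. The libraries held Atg9b at 3.84, 3.04 and 3.65 TPM on day 0, 15.1, 11.4 and 15.5 TPM on day 2 and 13.3, 7.25 and 13.6 TPM on day 14. All 6 later libraries exceeded those of day 0. Atg9b changed by 1.72 (SE 0.23, adjusted p = 0.000192) at day 2 and 1.41 (SE 0.23, adjusted p = 0.000871) at day 14 on the log2 scale. Wipi1 encodes a reader of phosphatidylinositol 3-phosphate. Wipi1 had 13.9, 13.7 and 11.5 TPM in the day 0 libraries, 30.8, 33.8 and 27.8 TPM in those of day 2 and 26.1, 25.9 and 35.6 TPM in those of day 14. Again no later library reached down to day 0, and the log2 fold change was 1.18 (SE 0.15, adjusted p = 0.000145) at day 2 and 1.09 (SE 0.15, adjusted p = 0.000354) at day 14. Atg2a encodes a lipid transfer protein that bridges the endoplasmic reticulum and the forming membrane. Levels of Atg2a were 21.4, 19.3 and 17.8 TPM on day 0, 44.1, 33.7 and 32.4 TPM on day 2 and 43.0, 40.1 and 42.0 TPM on day 14. Atg2a was higher by a log2 fold change of 0.87 (SE 0.13, adjusted p = 0.000456) at day 2 and 1.06 (SE 0.13, adjusted p = 0.000232) at day 14, without overlap.

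Wipi2, the family member that recruits ATG16L1, was the most abundant gene of this group and its calls were the least stable. At day 0 Wipi2 measured 31.6, 32.3 and 35.7 TPM, at day 2 42.3, 57.0 and 46.5 TPM and at day 14 36.3, 51.9 and 62.1 TPM. All 6 later libraries exceeded day 0, the lowest of them by a small margin. Wipi2 had a log2 fold change of 0.53 (SE 0.19, adjusted p = 0.0376) at day 2 and 0.55 (SE 0.19, adjusted p = 0.0347) at day 14. At day 2 the call was lost when any 1 of 6 libraries was left out, namely the 3 of day 0, day 2 replicates 2 and 3, and day 14 replicate 2 (adjusted p 0.05 to 0.116). At day 14 it was lost when any 1 of 5 was left out, namely the 3 of day 0 and day 14 replicates 2 and 3 (adjusted p 0.0561 to 0.113), and under median-of-ratios scaling (0.152) and quantile normalization (0.065). The paralogs Atg2b and Atg9a ranged from 8.68 to 26.1 TPM and rose at both times by log2 fold changes of 0.42 to 0.58. Without day 0 replicate 2 the day 2 rise of Atg2b had an adjusted p of 0.0598, and under quantile normalization its day 14 rise had one of 0.0805. Atg9a shares exon positions with Ankzf1 on the other strand, and Ankzf1 rose as well, to a mean of 29.4 TPM at day 2 and 26.1 TPM at day 14, against 9.60 TPM at day 0. How much of such pairs overlaps was not measured. Whether the library type keeps strand is not given in the sources used here, so reads from the shared positions may belong to either gene. The same holds for Becn1 with Cntd1, Atg2b with Gskip, Atg9b with Nos3, Atg4d with Kri1, Map1lc3b with Zcchc14, Gabarapl1 with 1700101I11Rik and Sqstm1 with Mrnip, 8 of the 39 in all.

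**Figure D2:**
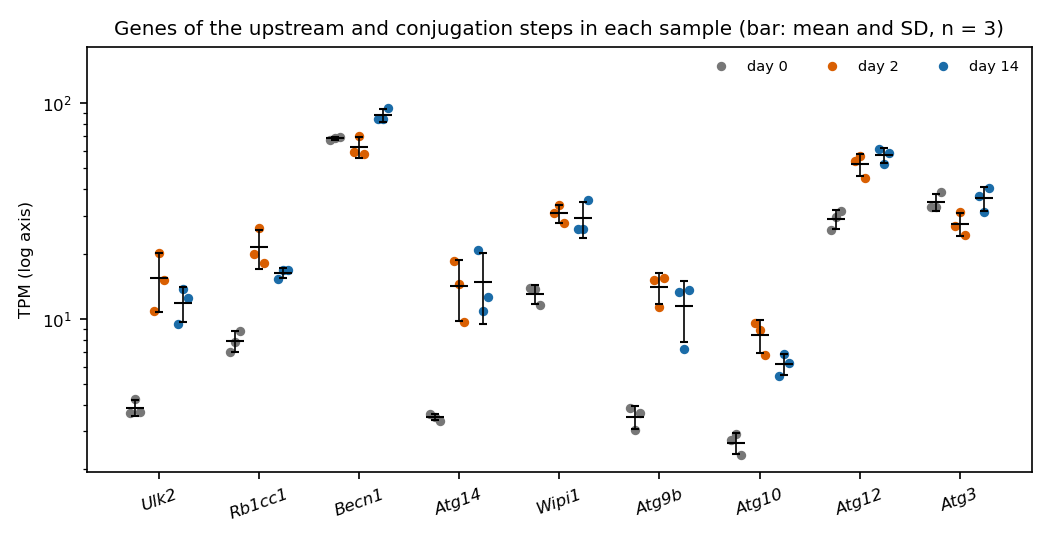
TPM (vertical axis, log scale) of 9 initiation, nucleation, membrane supply and conjugation genes in each library at day 0, day 2 and day 14, with a line at each group mean (n = 3). Ulk2, Rb1cc1, Atg14, Wipi1, Atg9b, Atg10 and Atg12 lie above day 0 at both later times, while Becn1 overlaps day 0 at day 2 and Atg3 at day 14.

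The conjugation genes were called in both directions, and their median stayed near 0. At day 2 against day 0, 3 of 10 rose and 2 fell, and at day 14 3 rose and 0 fell, with median log2 fold changes of -0.01 and 0.08. Those medians are close to and below the all-gene medians of -0.02 and 0.22. As shares, 30% rose at each time and 20% fell at day 2. All genes had 27.1% higher and 31.9% lower at day 2, and 36.2% higher and 18.8% lower at day 14. The share of conjugation genes that rose was thus near that of all genes. Atg10 encodes the E2-like enzyme that attaches ATG12 to ATG5. The libraries held Atg10 at 2.74, 2.91 and 2.34 TPM on day 0, 9.60, 8.89 and 6.77 TPM on day 2 and 5.44, 6.84 and 6.24 TPM on day 14. All later libraries exceeded day 0 at these low levels, and day 2 and day 14 overlapped narrowly. Atg10 changed by 1.35 (SE 0.15, adjusted p = 7.75e-05) at day 2 and 0.97 (SE 0.15, adjusted p = 0.000814) at day 14 on the log2 scale. Atg12, the ubiquitin-like modifier itself, was the most abundant member here. Atg12 had 25.8, 29.5 and 31.4 TPM in the day 0 libraries, 53.8, 57.0 and 45.1 TPM in those of day 2 and 61.3, 52.0 and 58.4 TPM in those of day 14. All later libraries exceeded those of day 0, and the log2 fold change was 0.82 (SE 0.13, adjusted p = 0.000454) at day 2 and 0.96 (SE 0.13, adjusted p = 0.000288) at day 14.

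Atg3, the gene of the E2-like enzyme that attaches ATG8 proteins to lipid, passed at neither time. Levels of Atg3 were 32.9, 33.0 and 38.5 TPM on day 0, 26.9, 31.2 and 24.5 TPM on day 2 and 37.2, 31.1 and 40.4 TPM on day 14. Its day 2 libraries were all below those of day 0 and its day 14 libraries overlapped them. Atg3 had a log2 fold change of -0.33 (SE 0.14, adjusted p = 0.0618) at day 2 and 0.05 (SE 0.14, adjusted p = 0.757) at day 14, and neither passed. At day 2 the lower level passed without day 2 replicate 2 (adjusted p = 0.0308) and under median-of-ratios scaling (0.0477). The fallers at day 2 were Atg4a and Atg5, named after their values were seen. Atg5, which encodes the acceptor of ATG12, averaged 19.3 ± 3.37 TPM at day 2 and 27.2 ± 2.08 TPM at day 0 (mean ± SD, n = 3), and its log2 fold change stood at -0.49 (SE 0.13, adjusted p = 0.0109). At day 14 it averaged 22.3 ± 1.14 TPM, with a log2 fold change of -0.28 (SE 0.13, adjusted p = 0.104) against day 0 that passed without day 2 replicate 2 (adjusted p = 0.0414), with only the groups compared (0.0468) and under median-of-ratios scaling (0.00405) and quantile normalization (0.0104). Atg4a, a gene of an ATG8 protease, averaged 3.97 ± 0.680 TPM at day 2 and 6.31 ± 0.381 TPM at day 0, with its log2 fold change at -0.56 (SE 0.13, adjusted p = 0.00533). At day 14 it averaged 5.44 ± 0.154 TPM and did not pass as deposited, but fell under median-of-ratios scaling (0.016) and quantile normalization (0.00153). Of its 31-base runs 60.8% also occur in the pseudogene Atg4a-ps, which is no row of the table, so its level is uncertain.

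The remaining 5 conjugation genes ranged from 3.31 to 28.8 TPM. Among them only Atg4c, another ATG4 protease gene, was called, higher at both times with adjusted p of 0.0304 at day 2 and 0.0108 at day 14. Its day 2 call was lost without day 0 replicate 1, day 0 replicate 2 or day 2 replicate 2 (adjusted p 0.07 to 0.097), and quantile normalization removed both calls (0.0898 at day 2 and 0.5 at day 14). Atg7, which encodes the E1-like enzyme shared by both conjugation reactions, had log2 fold changes of 0.02 (SE 0.15, adjusted p = 0.9) at day 2 and 0.08 (SE 0.15, adjusted p = 0.659) at day 14. The other 3, Atg4b, Atg4d and Atg16l1, had log2 fold changes from -0.15 to 0.22 in those comparisons, and none of the 3 passed under any alternative run. A value that misses the threshold does not show that a gene stayed level.

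The ATG8 genes, whose products coat the autophagosome and are consumed inside it, rose together, 4 of 5 at day 2 and 5 of 5 at day 14 against day 0. Their median log2 fold changes were 0.75 and 1.31. Summed over the family, TPM averaged 519 ± 27.2 at day 0, 891 ± 75.9 at day 2 and 1039 ± 82.3 at day 14 (mean ± SD, n = 3). Map1lc3b encodes LC3B, the family member most used to track autophagosomes. At day 0 Map1lc3b measured 118, 100.2 and 82.9 TPM, at day 2 256, 276 and 234 TPM and at day 14 264, 266 and 276 TPM. The later libraries formed a narrow band far above day 0. Map1lc3b changed by 1.35 (SE 0.13, adjusted p = 2.85e-05) at day 2 and 1.43 (SE 0.13, adjusted p = 5.22e-05) at day 14 on the log2 scale. Gabarapl1 encodes a GABARAP paralog. The libraries held Gabarapl1 at 38.6, 27.6 and 27.8 TPM on day 0, 97.2, 68.2 and 70.5 TPM on day 2 and 117, 111 and 105 TPM on day 14. The 3 groups were separate and in time order, and the log2 fold change was 1.30 (SE 0.17, adjusted p = 0.000178) at day 2 and 1.81 (SE 0.17, adjusted p = 5.69e-05) at day 14. Map1lc3a encodes LC3A. Map1lc3a had 22.5, 27.2 and 19.4 TPM in the day 0 libraries, 40.01, 44.2 and 33.8 TPM in those of day 2 and 55.8, 55.4 and 64.0 TPM in those of day 14. It too was ordered by time without overlap, with a log2 fold change of 0.75 (SE 0.15, adjusted p = 0.00197) at day 2 and 1.31 (SE 0.15, adjusted p = 0.000139) at day 14.

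Gabarap and Gabarapl2, abundant at day 0, had different time courses. Levels of Gabarap were 243, 224 and 208 TPM on day 0, 412, 346 and 315 TPM on day 2 and 424, 279 and 284 TPM on day 14. All later libraries exceeded day 0, and day 14 replicate 1 stood far above the other day 14 libraries. Gabarap changed by 0.66 (SE 0.17, adjusted p = 0.00858) at day 2 and 0.52 (SE 0.17, adjusted p = 0.0278) at day 14 on the log2 scale. The day 14 call was lost without day 0 replicate 2, day 0 replicate 3 or day 14 replicate 1 (adjusted p 0.0684 to 0.0872) and under median-of-ratios scaling (0.166). At day 0 Gabarapl2 measured 125, 138 and 155 TPM, at day 2 136, 194 and 149.8 TPM and at day 14 257, 241 and 316 TPM. Day 2 overlapped day 0 and day 14 did not. For Gabarapl2 the log2 fold change was 0.19 (SE 0.16, adjusted p = 0.332) at day 2 and 0.95 (SE 0.16, adjusted p = 0.000989) at day 14. Under quantile normalization the day 2 value passed as well (log2 fold change 0.59, adjusted p = 0.00472). In GENCODE M21, 15.2% of the 31-base runs of Gabarapl2 and 7.77% of those of Map1lc3b occur in other genes. Such shares were 32.0% for Atg9a, 9.36% for Rb1cc1 and 7.31% for Atg2b, and with Atg4a these are the 6 members over 5%, whose levels are less certain for that.

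Within the family total, the makeup shifted between members. Gabarap made up 43.3% ± 1.12 of the family TPM on day 0, 40.1% ± 3.32 at day 2 and 31.5% ± 5.71 at day 14 (mean ± SD, n = 3), the largest mean share at each time. Map1lc3b made up 19.3% ± 2.41 at day 0, 28.7% ± 1.33 at day 2 and 26.0% ± 2.20 at day 14. Gabarapl1 made up 6.01% ± 0.910, 8.82% ± 1.49 and 10.8% ± 0.832 in the same order of days. Gabarapl2, lowest at day 2, made up 27.0% ± 4.33, 18.0% ± 3.24 and 26.2% ± 3.69, and Map1lc3a stayed the smallest part with means of 4.43%, 4.41% and 5.64% over the days. Shares are not altered by a scaling that multiplies a whole library by 1 factor, and they were not tested.

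**Figure D3:**
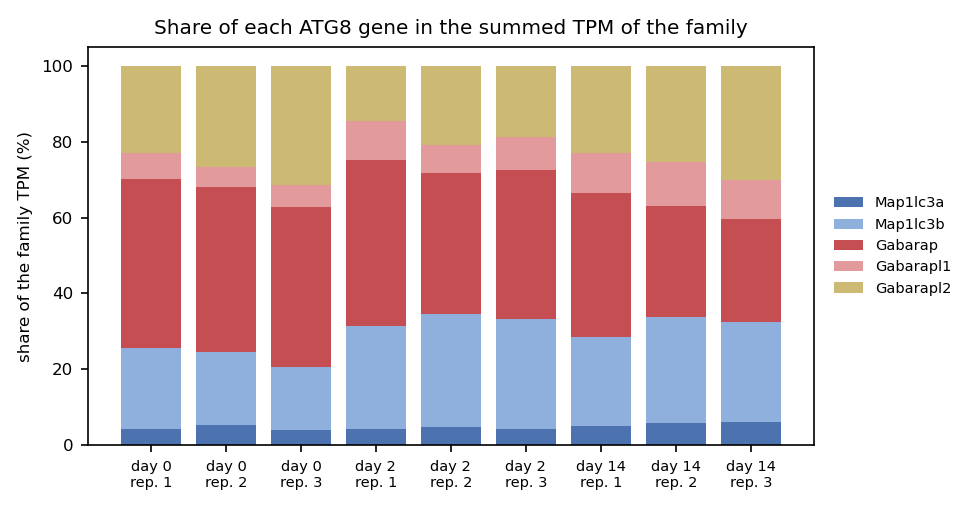
Share of each ATG8 gene in the summed TPM of the family (vertical axis, %) in each of the 9 libraries, as stacked bars from day 0 on the left to day 14 on the right. The Map1lc3b part is wider in all day 2 and day 14 libraries than in those of day 0, and the Gabarap part is narrowest in day 14 replicates 2 and 3.

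Of the role groups as listed here, the 5 cargo receptors had the highest median log2 fold change at day 2, 1.34, with 3 of 5 rising. That median is the value of Nbr1, and the 5 values were split, from -0.33 to 2.62. Receptor genes outside the members, among them Rtn3 at -0.13, Retreg1 at 0.35, Sec62 at 0.46 and Ncoa4 at 1.86, were not counted in this group. At day 14 the median of the 5 was 1.52, with 4 of 5 rising. Calcoco1, which encodes a receptor for turnover of the endoplasmic reticulum, changed most of all 39. The libraries held Calcoco1 at 14.4, 11.6 and 8.55 TPM on day 0, 89.8, 72.7 and 63.7 TPM on day 2 and 55.2, 50.04 and 59.4 TPM on day 14. No later library came near the day 0 values. Calcoco1 changed by 2.62 (SE 0.19, adjusted p = 4.83e-06) at day 2 and 2.18 (SE 0.19, adjusted p = 4.07e-05) at day 14 on the log2 scale. Sqstm1 encodes p62, the receptor that gathers ubiquitinated proteins, and was the most abundant member by its mean over the libraries (459 TPM). Sqstm1 had 206, 167 and 159 TPM in the day 0 libraries, 762, 701 and 578 TPM in those of day 2 and 642, 383 and 531 TPM in those of day 14. The later libraries were all above day 0, with day 14 replicate 2 the lowest of them. For Sqstm1 the log2 fold change was 1.94 (SE 0.19, adjusted p = 3.55e-05) at day 2 and 1.52 (SE 0.19, adjusted p = 0.00025) at day 14. Nbr1 encodes a receptor that works with p62. Levels of Nbr1 were 25.2, 25.7 and 24.9 TPM on day 0, 78.3, 66.5 and 54.1 TPM on day 2 and 96.4, 75.6 and 87.8 TPM on day 14. Day 0 was tight and well below both later times, with a log2 fold change of 1.34 (SE 0.14, adjusted p = 5.66e-05) at day 2 and 1.73 (SE 0.14, adjusted p = 3.57e-05) at day 14.

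Tax1bp1, which encodes another ubiquitin-binding receptor, was higher at day 14 but not at day 2. At day 0 Tax1bp1 measured 82.0, 94.9 and 90.7 TPM, at day 2 97.2, 96.1 and 66.2 TPM and at day 14 129.7, 121 and 128 TPM. Day 2 overlapped day 0, with day 2 replicate 3 the lowest library of the 9, and the day 14 libraries were highest. Tax1bp1 had a log2 fold change of -0.06 (SE 0.15, adjusted p = 0.732) at day 2 and 0.50 (SE 0.15, adjusted p = 0.018) at day 14, which is 0.28 relative to the median of all genes. That call was lost without day 0 replicate 1 and under median-of-ratios scaling (adjusted p of 0.0632 in both). Optn, the optineurin gene, ranged from 29.2 to 49.3 TPM and passed at neither time, although without day 2 replicate 1 it was lower at day 2 (adjusted p = 0.0354).

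**Figure D4:**
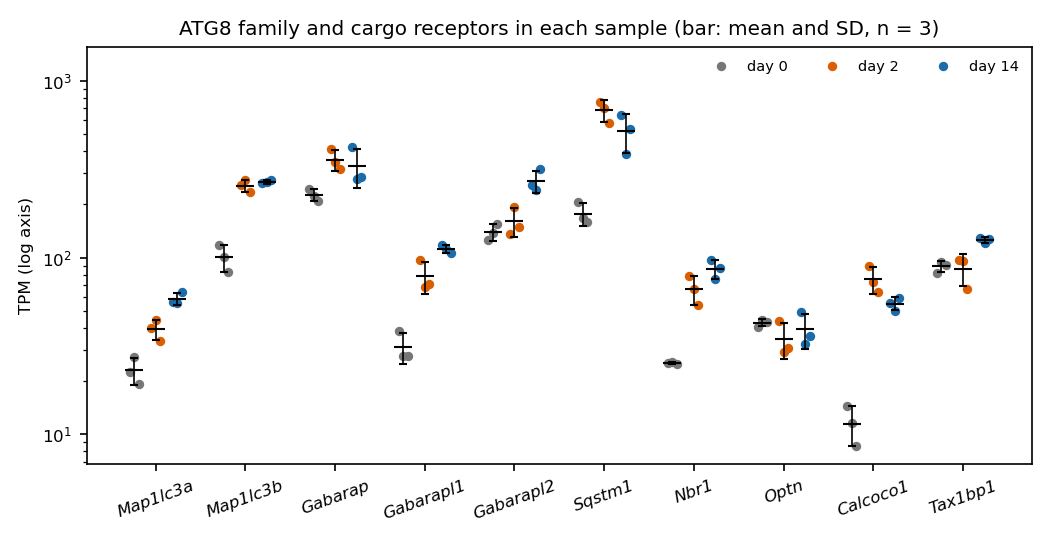
TPM (vertical axis, log scale) of the 5 ATG8 genes and the cargo receptor genes in each library at day 0, day 2 and day 14, with a line at each group mean (n = 3). Calcoco1, Sqstm1 and Nbr1 are above day 0 in every later library, and Gabarapl2 and Tax1bp1 separate from day 0 at day 14 only.

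Of the 2 members for fusion with the lysosome, 1 rose at day 2 and 0 at day 14 against day 0. The SNARE genes Snap29 and Ykt6, which are not members, fell at day 2 and are given below. Tecpr1 encodes a tether that binds the ATG12-ATG5 conjugate. The libraries held Tecpr1 at 29.3, 23.8 and 19.2 TPM on day 0, 53.4, 30.3 and 34.6 TPM on day 2 and 36.4, 25.3 and 34.0 TPM on day 14. Day 2 replicate 1 was far above the other libraries, and day 14 overlapped day 0. The log2 fold change of Tecpr1 was 0.67 (SE 0.24, adjusted p = 0.0349) at day 2, a call that was lost without day 0 replicate 2 or 3 or day 2 replicate 1 or 3 (adjusted p 0.0511 to 0.121), and 0.40 (SE 0.24, adjusted p = 0.179) at day 14. Stx17 encodes the SNARE protein of the closed autophagosome. Stx17 had 4.25, 4.80 and 4.5 TPM in the day 0 libraries, 5.19, 6.48 and 5.48 TPM in those of day 2 and 4.49, 6.31 and 6.11 TPM in those of day 14. Day 2 lay above day 0 and day 14 overlapped it, and the log2 fold change was 0.28 (SE 0.15, adjusted p = 0.131) at day 2 and 0.26 (SE 0.15, adjusted p = 0.166) at day 14. Without day 14 replicate 1 the day 14 value passed (adjusted p = 0.046), and the day 2 value passed with the 20 most abundant rows removed (0.0245) or with Mir6236 removed (0.0379).

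Between day 14 and day 2, 7 of 39 genes (17.9%) were higher and 0 lower, where 31.2% of all genes passed (27.4% higher and 3.79% lower). The 7 were Atg101, Becn1, Uvrag, Map1lc3a, Gabarapl1, Gabarapl2 and Tax1bp1. A rise of 2-fold was called for 0 members and for 7.38% of all genes. The values of 8 members lay wholly above and of 3 wholly below those of day 2, compared with 35.1% and 6.11% of all genes. The members' median log2 fold change was 0.12, lower than the all-gene median of 0.25. Largest was Gabarapl2, with 0.77 (SE 0.16, adjusted p = 0.00658), followed by Uvrag, whose product steers the lipid kinase complex to endosomes, with 0.75 (SE 0.16, adjusted p = 0.00789). Mean TPM ± SD of Uvrag (n = 3) was 30.1 ± 4.56 at day 14 and 17.5 ± 2.30 at day 2, with 18.2 ± 2.52 at day 0; it is described singly because of its values. Its log2 fold change against day 0 was -0.05 (SE 0.16, adjusted p = 0.792) at day 2 and 0.69 (SE 0.16, adjusted p = 0.00532) at day 14. Without day 2 replicate 3 the count was 4 higher and 1 lower, 2 were lower without day 14 replicate 1, and without day 14 replicate 3 the count was 3 higher.

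This count turned on how libraries were scaled. Under median-of-ratios scaling 2 genes, Uvrag and Gabarapl2, were higher at day 14 than at day 2 and 5 were lower, Rb1cc1, Pik3c3, Atg10, Sqstm1 and Calcoco1. Quantile normalization gave 2 higher and 5 lower, with Pik3r4 in place of Sqstm1. Both scalings bring the all-gene median near 0 (0.0041 and -0.06), against 0.25 in the deposited TPM. Rb1cc1 had a log2 fold change of -0.36 (SE 0.15, adjusted p = 0.0985) in the deposited TPM and -0.62 under median-of-ratios scaling (adjusted p = 0.00764). For Calcoco1 the same pair was -0.44 (SE 0.19, adjusted p = 0.101) and -0.71 (adjusted p = 0.0235). Leaving out single libraries also moved calls: Pik3c3 passed as lower without day 14 replicate 1 (0.048), Atg10 without day 2 replicate 3 (0.0366) and Sqstm1 without day 14 replicate 1 (0.0459). As higher, Atg3 passed without day 2 replicate 2 or day 14 replicate 2 (0.0326 and 0.0403), Atg4a and Atg5 without day 2 replicate 2 (0.0341 and 0.0433) and Nbr1 without day 2 replicate 1 (0.0279).

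Against day 0 the members' rise was less affected by scaling. At day 2, 24 were higher and 3 lower under median-of-ratios scaling, and 24 higher and 2 lower under quantile normalization. With the 20 most abundant rows removed, 26 members were higher and 2 lower, while all genes gave 4563 higher and 3457 lower, against 3438 higher and 4046 lower in the deposited TPM. At day 14, 22 were higher and 2 lower under median-of-ratios scaling, and 23 higher and 2 lower under quantile normalization, the lower genes being Atg4a and Atg5 in both. Over all genes the day 14 split was 4601 higher and 2389 lower in the deposited TPM, 3458 higher and 3651 lower under median-of-ratios scaling, and 2843 higher and 3363 lower under quantile normalization. The members' median log2 fold change at day 14 was 0.39 and 0.44 under those scalings.

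**Figure D5:**
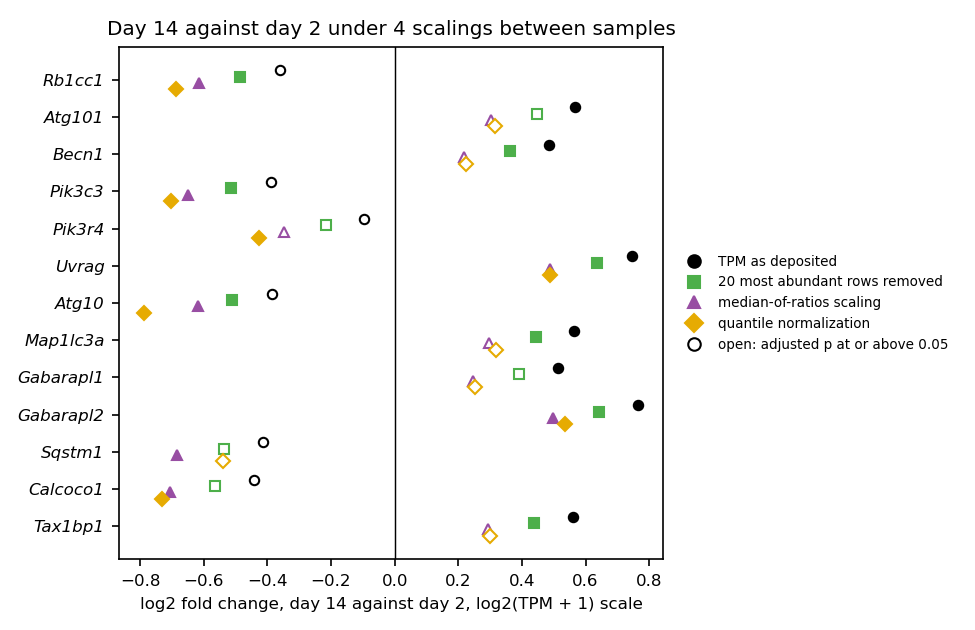
Log2 fold change of autophagy genes at day 14 against day 2 (horizontal axis, log2(TPM + 1) scale; 1 gene a row) under 4 scalings between libraries, marked by colour and shape, with filled points past an adjusted p of 0.05. Gabarapl2 and Uvrag stay to the right of 0 and filled, while Rb1cc1, Pik3c3, Atg10 and Calcoco1 lie left of 0 and are filled under median-of-ratios and quantile scaling.

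The promoters of the members were searched for 4 short motifs in RefSeq windows of 300 bases (250 before to 50 after the gene start, GRCm38.p6), available here for 33 of the 39. The motifs were chosen after the expression values were seen. CACGTG, the E-box core of the motif bound by the TFEB family, was present in 4 of 33 (12.1%), against 8.09% of 27025 genes with a window and 11.9% of 9710 such genes that were tested. The 4 windows are shown by 100 bases each, with the motif in capitals, so that the bases around it can be seen. Counted from the gene start, the motif begins at -1 in Atg14, at -94 and -71 in Atg3, at -14 in Atg5 and at -132 in Atg7. The stretches do not end at the same distance from the gene start, and that of Atg7 is centred on its motif and stops short of the start.
Atg14, chr14:47568430-47568529, minus strand: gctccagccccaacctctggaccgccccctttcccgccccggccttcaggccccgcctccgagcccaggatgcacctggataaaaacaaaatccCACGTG
Atg3, chr16:45158729-45158828, plus strand: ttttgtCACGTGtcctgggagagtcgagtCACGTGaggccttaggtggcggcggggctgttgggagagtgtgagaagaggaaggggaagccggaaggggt
Atg5, chr10:44268239-44268338, plus strand: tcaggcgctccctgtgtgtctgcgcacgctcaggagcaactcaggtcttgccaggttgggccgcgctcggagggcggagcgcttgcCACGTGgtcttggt
Atg7, chr6:114670917-114671016, plus strand: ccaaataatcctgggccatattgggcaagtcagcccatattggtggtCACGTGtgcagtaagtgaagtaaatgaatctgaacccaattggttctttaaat
Of these genes Atg14 rose at both times, Atg5 fell at day 2, and Atg3 and Atg7 passed in neither comparison with day 0. TGACNNNGC, a core of the antioxidant response element, was found in Atg13, Map1lc3b, Tax1bp1 and Ulk2, 12.1% of the members, against 14.0% of all windows and 17.1% of tested genes. TGATGNAA, a core of ATF4 sites, was found in 0 of 33 (4.51% of all windows and 2.71% of tested genes), and GTAAACA, a core of FOXO sites, in 0 of 33 (4.05% and 3.09%). Both strands were read, and the letters of the 4 motifs were searched separately. A match is a description of these letters, and a window without one says nothing about the factor.

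Further genes of the pathway were listed from textbook knowledge, but with earlier results of these data known. All 30 were tested, and they are not an independent comparison. At day 2 against day 0, 12 rose and 2 fell, and at day 14 16 rose and 0 fell, with median log2 fold changes of 0.31 and 0.46. As shares, 40.0% rose and 6.67% fell at day 2 and 53.3% rose at day 14, where all genes had 27.1% higher and 31.9% lower at day 2, 36.2% higher and 18.8% lower at day 14, and medians of -0.02 and 0.22. The fallers at day 2, named after their values were seen, were the SNARE genes Snap29 and Ykt6. Their log2 fold changes were -0.82 (SE 0.12, adjusted p = 0.000367) and -0.93 (SE 0.16, adjusted p = 0.000962). At day 14 these were 0.09 (adjusted p = 0.548) and -0.31 (adjusted p = 0.13). Wdr45 encodes WIPI4, a partner of ATG2. Levels of Wdr45 were 16.0, 18.8 and 16.4 TPM on day 0, 51.9, 57.3 and 55.6 TPM on day 2 and 68.3, 71.5 and 82.6 TPM on day 14. The groups were separate and in time order, with a log2 fold change of 1.63 (SE 0.11, adjusted p = 3.67e-06) at day 2 and 2.05 (SE 0.11, adjusted p = 7.44e-06) at day 14. Trp53inp2 encodes a protein that binds ATG8 proteins and recruits them. At day 0 Trp53inp2 measured 6.87, 6.64 and 4.73 TPM, at day 2 17.5, 16.4 and 15.3 TPM and at day 14 21.1, 16.4 and 24.2 TPM. All later libraries exceeded day 0, and the log2 fold change was 1.31 (SE 0.17, adjusted p = 0.00019) at day 2 and 1.6 (SE 0.17, adjusted p = 0.000114) at day 14. At day 14 against day 2, 7 of the 30 (23.3%) were higher and 0 lower in the deposited TPM, where 27.4% of all genes were higher and 3.79% lower, with 1 higher and 5 lower under median-of-ratios scaling and 1 higher and 6 lower under quantile normalization. Without day 14 replicate 3, 4 were higher.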

How the data were processed

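The 9 libraries are from cell line 6620c1, 3 each at day 0, day 2 and day 14. Libraries were made by Novogene from total RNA (Qiagen kit), per the labels' protocols, and Salmon was used, per the submitters' processing notes. The sources used here give neither its version nor the index, build and strand setting. The deposited values are gene TPM, scaled by the authors within each library; read totals cannot be had from TPM, so depth is unknown, counting intervals are left out, and how much less certain low genes are cannot be said.

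Rows with at least 1 TPM in at least 3 libraries were tested (12693 of 24493; 11800 were not). Values were log2(TPM + 1), fitted over all 9 libraries with a mean per day by limma 3.58.1 in R 4.3.3 with a variance trend, with two-sided p-values and the Benjamini-Hochberg adjustment across every tested row. A fold change on this scale understates the change of low genes. The fit was tested on simulated data without differences of scaling between libraries, so that test does not bear on the effect of scaling. Figures were drawn with matplotlib 3.10.9. The same fit for day 14 against day 2 is also the test of whether the 2 changes from day 0 differ.

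The members, the lists of further pathway genes, upstream genes and cell type markers were chosen with earlier results of these data known. Full values are given for members called with at least a 2-fold change in any comparison, for the pair of highest mean TPM in each role group and for all 5 ATG8 genes, which makes 25; from each of the 2 further lists up to 2 called genes with the largest rise and 2 with the largest fall at day 14 against day 0. The other 14 members are given by range and count, except where a call of theirs is described.

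The alternatives used a pseudocount of 0.1 or 5, a filter at a mean of 5 TPM or none, median-of-ratios or quantile scaling, removal of the 20 most abundant rows, no variance trend, only the groups compared, a replicate block and leaving out each library. Removal of Mir6236 was chosen after seeing the data. Coding ends, 31-base runs and exon overlaps were computed from GENCODE M21 and promoters taken from RefSeq (GRCm38.p6).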

Additional observations from a re-analysis of the deposited data

Results flagged for a closer look

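In 7 of 39 members (17.9%) the change from day 0 differed between day 14 and day 2. This share was below that of all genes, of which 31.2% passed (27.4% higher and 3.79% lower). The test was the log2 fold change of day 14 against day 2 in the limma fit (adjusted p over all genes). The 7 members were Atg101 at 0.57 (SE 0.17, adjusted p = 0.0309), Becn1 at 0.49 (SE 0.10, adjusted p = 0.00767), Uvrag at 0.75 (SE 0.16, adjusted p = 0.00789) and Map1lc3a at 0.56 (SE 0.15, adjusted p = 0.0191). The others were Gabarapl1 at 0.51 (SE 0.17, adjusted p = 0.0456), Gabarapl2 at 0.77 (SE 0.16, adjusted p = 0.00658) and Tax1bp1 at 0.56 (SE 0.15, adjusted p = 0.0193). In each of the 7, all 3 day 14 libraries lay above all 3 day 2 libraries, as in 35.1% of all genes. The 7 were picked by this same comparison, so the lack of overlap is no further support. The median of all genes in this comparison was 0.25, and relative to it the values were 0.32 for Atg101, 0.24 for Becn1, 0.50 for Uvrag, 0.32 for Map1lc3a, 0.27 for Gabarapl1, 0.52 for Gabarapl2 and 0.31 for Tax1bp1.

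Under median-of-ratios scaling and quantile normalization Uvrag and Gabarapl2 passed and the other 5 did not (adjusted p 0.0667 to 0.345). Without single libraries, Atg101 was lost without day 2 replicate 3, day 14 replicate 2 or day 14 replicate 3 (adjusted p 0.0561 to 0.0981), and Map1lc3a without day 2 replicate 3 or day 14 replicate 3 (adjusted p 0.0653 and 0.065). Tax1bp1 was lost without day 14 replicate 3 (adjusted p = 0.0526) and with only the groups compared (0.0543). Atg101 was also lost with only the groups compared (0.0763), with the 20 most abundant rows removed (0.057) and with the replicate number as a block (0.0507). Gabarapl1 was lost when any 1 of 7 libraries was left out, namely day 0 replicates 2 and 3, day 2 replicates 2 and 3 and the 3 of day 14 (adjusted p 0.0591 to 0.133). Its call was lost as well without the filter on low values (0.0654), with the 20 most abundant rows removed (0.129), with Mir6236 removed (0.0864), with no variance trend (0.0535) and with only the groups compared (0.0594), 14 of the 20 alternatives in all.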

How the results depend on the processing

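Over 20 alternatives and the 3 comparisons, the members' calls gave 2206 values on the same side of the threshold, 90 that lost it, 44 that gained it and 0 that changed sign while called; sign changes of values called in neither were not counted. The status of a member, called or not called, stayed the same under all 20 for 30 of 39 members at day 2 against day 0. It did so for 27 at day 14 against day 0 and for 24 at day 14 against day 2. These numbers include members that passed in no run. Of the 7 members called at day 14 against day 2, only Uvrag and Gabarapl2 passed under all 20. Depth is unknown, so what it limits could not be computed, and the cause of the changes below was not tested. Median-of-ratios scaling gave, at day 14 against day 0, 2 members lower (0 in the deposited TPM), 3 other pathway genes lower (0), 5 upstream genes lower (2) and 3651 of all genes lower (2389). At day 14 against day 2 it gave 2 members higher (7) and 5 lower (0), 1 other pathway gene higher (7) and 5 lower (0), 0 upstream genes higher (3) and 3 lower (0), and 1658 of all genes higher (3474) and 1408 lower (481). Quantile normalization gave 2 members lower, 1 other pathway gene lower and 2843 of all genes higher (4601) for day 14 against day 0. For day 14 against day 2 it gave 2 members higher and 5 lower, 1 other pathway gene higher and 6 lower, 0 upstream genes higher and 4 lower, and 1470 of all genes higher and 1905 lower. Removing the 20 most abundant rows gave, at day 14 against day 2, 3 members, 3 other pathway genes, 2 upstream genes and 818 of all genes lower, and 1 upstream gene higher; removing Mir6236, an alternative chosen after seeing the data, gave 3 members and 2 upstream genes lower. Fitting only the groups compared gave 1 member lower for day 14 against day 0 and, for day 14 against day 2, 4 members, 4 other pathway genes and 1 upstream gene higher, with 1 upstream gene and 291 of all genes lower. Without the filter on low values, day 2 calls were lost for Wipi2 (adjusted p = 0.0646), Atg4c (0.0656) and Tecpr1 (0.0646), and day 14 calls against day 0 for Ambra1 (0.0565) and Wipi2 (0.0522), and the day 14 call against day 2 for Gabarapl1 (0.0654). With a mean of at least 5 TPM Atg4c was lost at day 2 (0.0525), and with a pseudocount of 5 Ambra1 at day 14 (0.0502).

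The replicate numbers were not shown to pair the libraries: deviations from the group means of same-numbered libraries correlated at -0.0709 to 0.318, 1 of 9 pairs was over 0.1, and 4 of 9 libraries correlated best with their own number. With the replicate block, members called higher and lower were 24 and 2 for day 2 against day 0, 27 and 0 for day 14 against day 0, and 6 and 1 for day 14 against day 2, where 1 upstream gene was lower. The block ended the calls of Ambra1 at day 14 against day 0 (adjusted p = 0.0734) and of Atg101 at day 14 against day 2 (0.0507), and Pik3c3 passed as lower in the last comparison (0.047); calls of other members were as without it.

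Leaving out each library in turn gave, at day 2 against day 0, 20 to 24 members higher and 2 to 3 lower, 10 to 13 other pathway genes higher and 2 lower, 7 to 9 upstream genes higher and 4 to 5 lower, and 2900 to 3483 of all genes higher and 3456 to 4176 lower. At day 14 against day 0 it gave 23 to 29 members higher and 0 to 1 lower (1 without day 2 replicate 2), 13 to 18 other pathway genes higher and 0 to 1 lower (1 without day 14 replicate 3), 8 to 10 upstream genes higher and 1 to 3 lower, and 3808 to 4712 of all genes higher and 1814 to 2552 lower. At day 14 against day 2 it gave 3 to 9 members higher and 0 to 2 lower, 4 to 8 other pathway genes higher and 0 to 1 lower, 0 to 3 upstream genes higher and 0 to 1 lower, and 2392 to 3868 of all genes higher and 318 to 460 lower. The upstream genes numbered 1 higher without day 2 replicate 3 and 0 without day 14 replicate 3, 318 of all genes were lower without day 2 replicate 1, and 1 other pathway gene was lower without day 14 replicate 1.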

Other observations

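Genes that control autophagy from upstream, in kinase signalling and transcription, moved in both directions. Of 20 listed, 18 were tested (Prkaa2 and Mitf were not). At day 2 against day 0, 9 rose and 4 fell, and at day 14 9 rose and 2 fell, with median log2 fold changes of 0.31 and 0.39. The falls were 22.2% and 11.1% of the list, where 31.9% and 18.8% of all genes fell, and the rises 50% at each time, where 27.1% and 36.2% of all genes rose, with all-gene medians of -0.02 and 0.22. The list mixes genes that promote autophagy with genes that restrain it, so its rises are not of 1 kind. Of the restraining genes, Mtor, Zkscan3 and Bcl2 rose at both times, with log2 fold changes of 0.57, 1.07 and 0.997 at day 14. Ddit4, which encodes the mTORC1 inhibitor REDD1 that hypoxia is known to induce, rose most. The libraries held Ddit4 at 15.8, 6.0 and 1.84 TPM on day 0, 226, 120.3 and 151 TPM on day 2 and 104, 65.8 and 78.0 TPM on day 14. The day 0 libraries differed widely among themselves, yet all lay below the lowest later library. Ddit4 had a log2 fold change of 4.54 (SE 0.54, adjusted p = 0.000105) at day 2 and 3.56 (SE 0.54, adjusted p = 0.000646) at day 14 against day 0 (limma). Sesn2 encodes a leucine sensor upstream of mTORC1. Sesn2 had 4.87, 3.26 and 3.74 TPM in the day 0 libraries, 8.70, 28.2 and 26.8 TPM in those of day 2 and 21.5, 26.9 and 41.0 TPM in those of day 14. Sesn2 had a log2 fold change of 2.02 (SE 0.40, adjusted p = 0.00223) at day 2 and 2.60 (SE 0.40, adjusted p = 0.00074) at day 14, with day 2 replicate 1 the lowest of the later libraries.

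Both listed genes for regulatory subunits of AMPK, the kinase that activates ULK1 when energy is low, fell. Genes of other regulatory subunits of AMPK were not listed and were not looked at. Prkaa1, a gene of its catalytic subunit, passed at neither time. Its log2 fold change was 0.02 (SE 0.14, adjusted p = 0.896) at day 2 and 0.06 (SE 0.14, adjusted p = 0.751) at day 14. The other catalytic gene, Prkaa2, was not tested and averaged 0.169 TPM at day 0, 0.295 TPM at day 2 and 0.871 TPM at day 14. Prkab1 encodes a beta subunit. Levels of Prkab1 were 70.1, 72.9 and 71.4 TPM on day 0, 48.7, 31.3 and 30.7 TPM on day 2 and 56.8, 40.5 and 38.9 TPM on day 14. Prkab1 had a log2 fold change of -0.97 (SE 0.20, adjusted p = 0.00233) at day 2 and -0.66 (SE 0.20, adjusted p = 0.0177) at day 14, without overlap with day 0. Prkag1 encodes a gamma subunit. At day 0 Prkag1 measured 86.1, 91.7 and 82.1 TPM, at day 2 62.3, 52.5 and 51.7 TPM and at day 14 62.7, 55.5 and 57.5 TPM. The same comparisons of Prkag1 gave -0.64 (SE 0.11, adjusted p = 0.000741) at day 2 and -0.56 (SE 0.11, adjusted p = 0.00203) at day 14, again without overlap. They were the only listed upstream genes that fell at day 14 in the deposited TPM, and 5 fell there under median-of-ratios scaling. Without day 0 replicate 2, day 14 replicate 2 or day 14 replicate 3, 1 gene was called lower at day 14.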
